A study of Homo sapiens with 6 samples.

Results

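PLEKHB2 and 8 genes tied to it by function were examined after knockdown of ERK3, an atypical MAP kinase and the product of MAPK6, in the established human melanoma line A375. The 9 genes were named by symbol among the 17687 genes compared, and each was read from the brightest of its probe sets on the array. They are PLEKHB2 and its paralog PLEKHB1, the ubiquitin ligases NEDD4, NEDD4L, WWP1, WWP2 and ITCH, the lipid flippase ATP8A1 and the small GTPase RAB11A. The set was drawn up because PLEKHB2 was much lower in the knockdown arrays, so the siERK3 and siCon values of PLEKHB2, with their error, are a description from which nothing is inferred, and all values of the other 8 genes come from the same comparison.

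The siERK3 group received a predesigned small interfering RNA (siRNA) against ERK3, and the siCon group a negative control siRNA from the same supplier. No other agent is named for either group, and both were transfected transiently and harvested after 3 days, per the series' design text. Each group had 3 arrays of total RNA, and the labels name no clone, no second siRNA and no separate cultures, so the spread between arrays may be technical. Because RNA was taken from the bulk culture, fewer cells expressing a transcript and less transcript per cell cannot be told apart.

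PLEKHB2, also called evectin-2, is a small membrane-anchored protein of recycling endosomes, the compartments that return internalised receptors to the cell surface. Its pleckstrin homology domain binds phosphatidylserine, a lipid that flippases such as ATP8A1 move to the cytosolic face of those membranes, and RAB11A is the GTPase that defines the compartment. NEDD4-type ligases combine a lipid-binding C2 domain, several WW domains that hold proline-rich partners, and a catalytic HECT domain that transfers ubiquitin to substrates. In cultured cells PLEKHB2 has been linked to activation of these ligases, to ubiquitination of the kinase LATS1 and to the activity of its target YAP.

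The knockdown and the arrays were checked first. MAPK6 gave log2 values of 10.54, 10.32 and 10.67 in siERK3 arrays 1 to 3, against 13.45, 13.55 and 13.62 in siCon arrays 1 to 3. In the limma fit across all genes, MAPK6 fell by 3.03 on the log2 scale (SE 0.14, adjusted p = 0.000133). Array medians lay between 7.06 and 7.10, and siCon 2 and siERK3 3 stood apart on the second principal component, at -26.5 and -15.2 against 4.35 to 21.7 for the other arrays. The 95th percentile of the negative control probe sets of each array was taken as its background level. The melanocyte lineage genes SOX10, MITF and S100B were above the background level on all arrays, while the pigmentation genes MLANA, PMEL, TYR and TYRP1 were above it on none. No leukocyte, keratinocyte or endothelial marker (0 of 3, 0 of 4 and 0 of 4) was above that level on any array. Of 5 fibroblast markers, COL1A2 and LUM were above it, while COL1A1, DCN and PDGFRA were not. LUM fell by 0.83 (adjusted p = 0.0441 in limma), and COL1A2 had a difference of -0.21. The log2 of the summed fibroblast signal was 9.82 to 9.87 in siERK3 and 10.23 to 10.34 in siCon, with LUM as its largest term. COL1A1, DCN and PDGFRA averaged higher in siERK3 than in siCon, at levels below background. The part of the fibroblast signal in the results was not tested.

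PLEKHB2 had log2 values of 9.35, 9.49 and 9.45 in siERK3 arrays 1 to 3, against 11.18, 11.53 and 11.34 in siCon arrays 1 to 3. All 3 knockdown arrays were low and lay within 0.14 of each other, and the highest of them was 1.69 below the lowest control array. The means were 9.43 ± 0.07 in siERK3 and 11.35 ± 0.17 in siCon (SD, n = 3 each). The difference was -1.92 (SE 0.14, 95% interval -2.24 to -1.60), which leaves 26.5% of the control signal (21.2% to 33.1%). Only 3 of the 17687 genes had a more negative difference. The signal stayed above the background level, which was 7.32 to 7.40 on the siERK3 arrays, so the change is a measured value and not a bound. With any 1 array left out the difference was between -2.00 and -1.83, and with siCon 2 and siERK3 3 both left out it was -1.84.

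**Figure D1:**
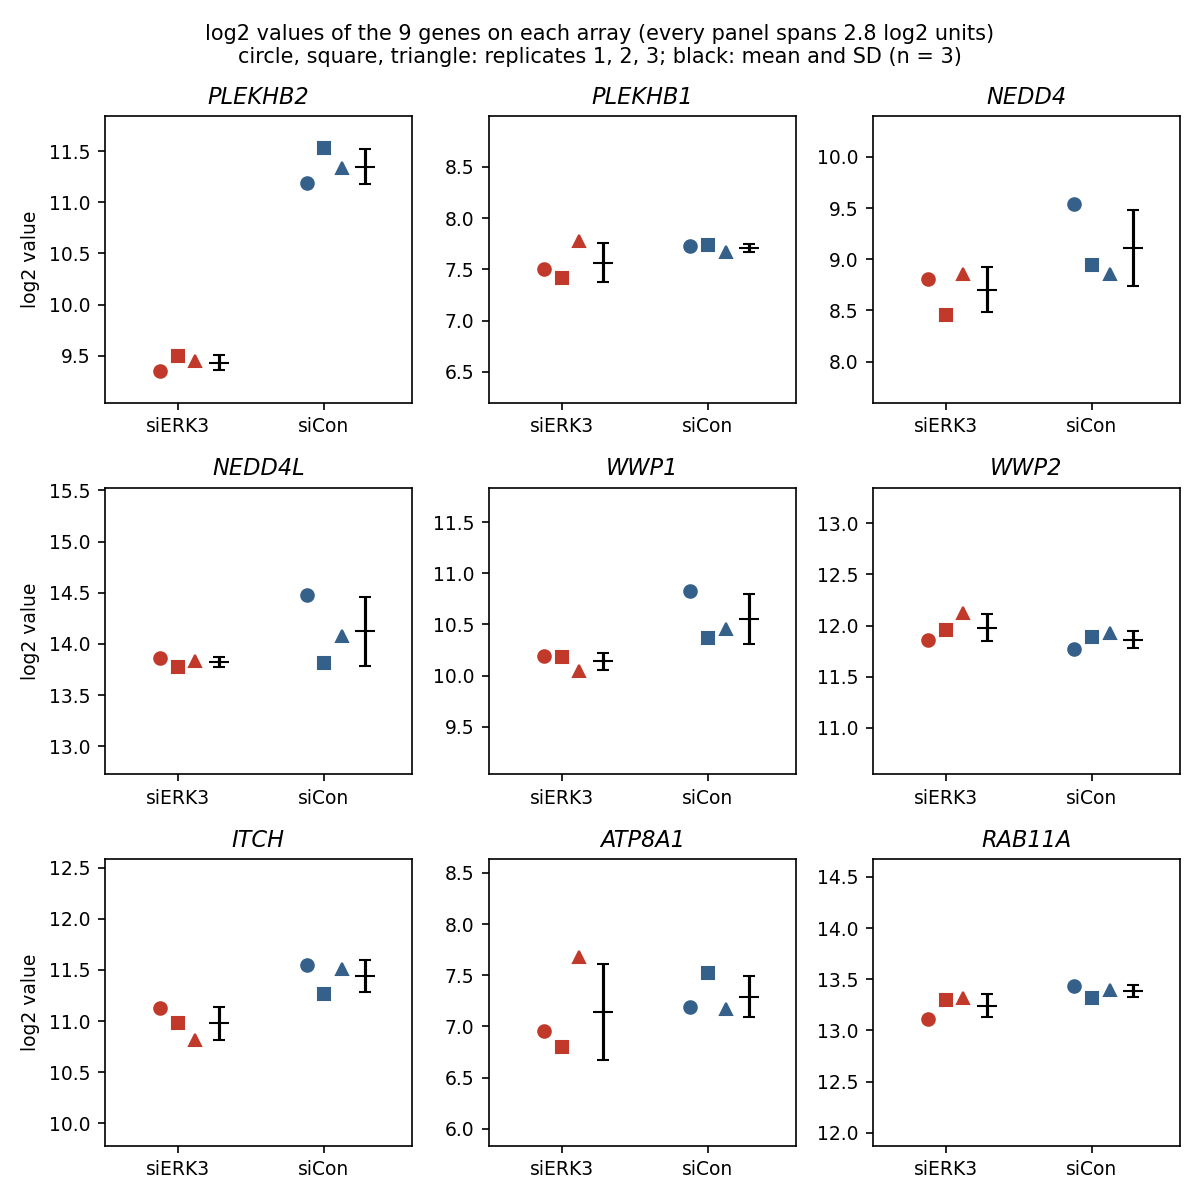
Log2 value (vertical axis) of each of the 9 genes on the 3 siERK3 arrays (red, left) and the 3 siCon arrays (blue, right), with the mean and SD in black, n = 3 each; marker shapes give the replicate number and every panel spans the same number of log2 units. PLEKHB2 is the gene whose siERK3 arrays lie furthest below its siCon arrays, and PLEKHB1, NEDD4L, WWP2 and ATP8A1 have groups that overlap.

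Of the 9 genes 1, PLEKHB2, passed limma's threshold after adjustment by Benjamini-Hochberg over the 17687 genes, where 0.956% of all genes passed; because PLEKHB2 was chosen on this comparison, nothing is read from that share. The other 8 did not pass (adjusted p 0.223 to 0.838 in limma), and 2 of them, ITCH and WWP1, were lower at an unadjusted p under 0.05, a level at which 6.5% of all genes were lower and 6.98% higher. No siERK3 array reached the lowest siCon array for 5 of the 9 genes and for 4 of the 8 without PLEKHB2 (ITCH, WWP1, NEDD4 and RAB11A), a split that 9.7% of all genes showed. No gene of the 9 was split the other way, which 10.1% of all genes were. The 8 differences had a median of -0.23 on the log2 scale, against -0.0014 over all genes. The 9 genes were chosen with results of these arrays known, so these counts describe the set and do not test it.

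**Figure D2:**
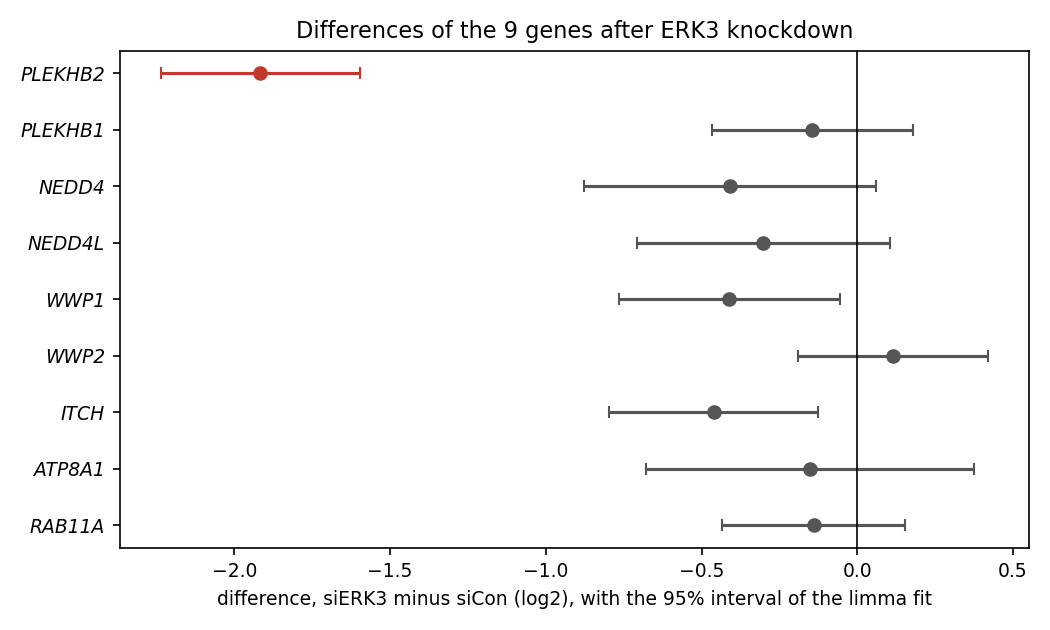
Difference of siERK3 minus siCon on the log2 scale (horizontal axis) for each of the 9 genes, with the 95% interval of the limma fit over 3 arrays a group. PLEKHB2 in red lies at -1.92, the other genes lie between -0.46 and 0.11, and among these the intervals of ITCH and WWP1 do not reach 0.

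PLEKHB1, or evectin-1, is the paralog best known from photoreceptors and other neural cells. Its log2 values were 7.50, 7.41 and 7.78 in siERK3 arrays 1 to 3, against 7.73, 7.73 and 7.67 in siCon arrays 1 to 3. The siERK3 arrays lay on both sides of the siCon arrays, and siERK3 3 was the highest of all 6. All 6 values were above the background level, but by little. The difference was -0.14 (SE 0.14, 95% interval -0.47 to 0.18; adjusted p = 0.729 in limma).

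Among the ligases, ITCH, known for restraining the transcription factor JUNB in mouse T cells, had the most negative difference. ITCH gave 11.13, 10.99 and 10.82 in siERK3 arrays 1 to 3, against 11.55, 11.26 and 11.50 in siCon arrays 1 to 3. The groups were separated by 0.13, less than the range of either group (0.31 in siERK3 and 0.29 in siCon). The difference of ITCH was -0.46 (SE 0.15, 95% interval -0.80 to -0.13; adjusted p = 0.223 in limma). With a mean-variance trend and robust moderation in limma, ITCH passed at an adjusted p = 0.042, a setting under which 722 genes passed in all. Over the other alternatives the adjusted p of ITCH was 0.13 to 0.429.

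WWP1 is a ligase reported to act on the transcription factor KLF5. Its log2 values were 10.19, 10.18 and 10.05 in siERK3 arrays 1 to 3, against 10.83, 10.36 and 10.46 in siCon arrays 1 to 3. Every knockdown array was below every control array, by at least 0.18, and siCon 1 was well above the other control arrays. The difference of WWP1 was -0.41 (SE 0.16, 95% interval -0.77 to -0.06; adjusted p = 0.300 in limma).

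NEDD4, the founding member of the family, acts on many membrane receptors and their adaptors. NEDD4 gave 8.80, 8.45 and 8.86 in siERK3 arrays 1 to 3, against 9.54, 8.94 and 8.86 in siCon arrays 1 to 3. The groups barely parted, with 0.0016 between siERK3 3 and siCon 3, and siCon 1 was the high array. The difference of NEDD4 was -0.41 (SE 0.21, 95% interval -0.88 to 0.06; adjusted p = 0.445 in limma).

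NEDD4L, which controls the surface amount of the epithelial sodium channel, gave 13.86, 13.77 and 13.83 in siERK3 arrays 1 to 3, against 14.48, 13.81 and 14.08 in siCon arrays 1 to 3. The siERK3 arrays were tightly grouped and overlapped the lowest siCon array, siCon 2. The difference of NEDD4L was -0.30 (SE 0.18, 95% interval -0.71 to 0.10; adjusted p = 0.531 in limma).

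WWP2, a ligase described for the pluripotency factor OCT4, was the member with a positive difference. WWP2 gave 11.86, 11.95 and 12.12 in siERK3 arrays 1 to 3, against 11.77, 11.89 and 11.93 in siCon arrays 1 to 3. The groups overlapped. The difference of WWP2 was 0.11 (SE 0.13, 95% interval -0.19 to 0.42; adjusted p = 0.781 in limma).

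For 4 of the 5 ligases (NEDD4, NEDD4L, WWP1 and ITCH) siCon 1 was the highest control array, while for PLEKHB2 siCon 1 was the lowest. Without siCon 1 the differences were -0.20 for NEDD4, -0.12 for NEDD4L, -0.27 for WWP1 and -0.41 for ITCH. NEDD4, NEDD4L and WWP1 thus moved by more than 1.5 times on 1 control array, and ITCH did not. Without siCon 2 and siERK3 3 together they were -0.57 for NEDD4, -0.46 for NEDD4L, -0.46 for WWP1 and -0.47 for ITCH, and none of these passed in limma (adjusted p 0.352 to 0.455). The smaller differences of the set moved by over 1.5 times as well, to 0.04 for WWP2 without siERK3 3, -0.07 for PLEKHB1 without siERK3 2 and -0.08 for RAB11A without siERK3 1.

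**Figure D3:**
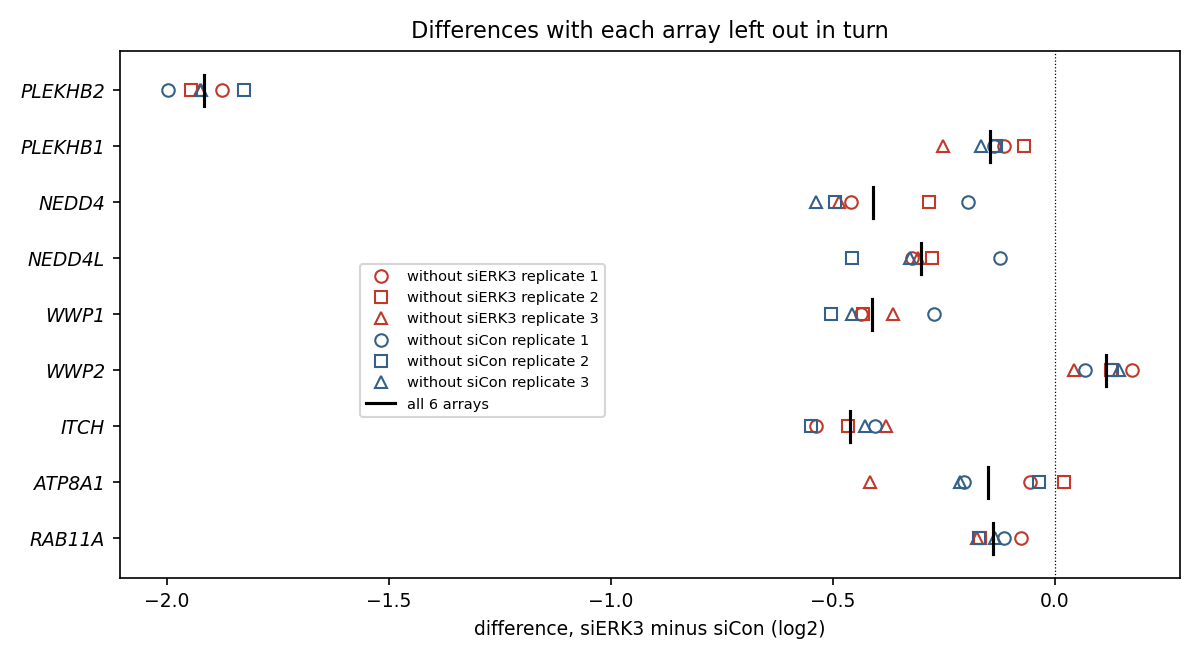
Difference of siERK3 minus siCon on the log2 scale (horizontal axis) for each of the 9 genes with all 6 arrays (black bar) and with each array left out in turn (red symbols for siERK3 arrays, blue for siCon arrays). PLEKHB2 stays between -2.00 and -1.83, NEDD4 and NEDD4L come closest to 0 without siCon 1, and ATP8A1 crosses 0 without siERK3 2.

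At the recycling endosome, RAB11A gave 13.12, 13.30 and 13.31 in siERK3 arrays 1 to 3, against 13.43, 13.32 and 13.39 in siCon arrays 1 to 3. The siERK3 arrays lay just below the siCon arrays, with 0.0087 between the nearest pair. The difference of RAB11A was -0.14 (SE 0.13, 95% interval -0.43 to 0.15; adjusted p = 0.709 in limma). ATP8A1, the flippase that supplies phosphatidylserine to these membranes, gave 6.95, 6.80 and 7.67 in siERK3 arrays 1 to 3, against 7.19, 7.52 and 7.17 in siCon arrays 1 to 3. ATP8A1 was above the background level on 1 array of each group, so a change in it could be measured only poorly. Its groups overlapped, and the difference was -0.15 (SE 0.23; adjusted p = 0.838 in limma).

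Genes that act with the 9 were taken from 9 lists chosen by role. Of 181 genes listed, 163 were measured and the other 18 were not analysed here. Of the 163, 51 were above the background level on no array, so a change in them could hardly be seen; these include 14 of the 26 substrates, 14 of the 26 PLEKH genes and 9 of the 21 flippase-list genes, and the counts and medians below include them. Over all lists, 2 genes rose, 2 fell and 159 did not pass limma's test over all genes, where 0.447% of all genes rose and 0.509% fell. EHD3 and PTDSS2 rose, and YAP1 and CCN1 fell. All 4 lost their calls with siCon 2 and siERK3 3 both left out (adjusted p 0.187 to 0.227 in limma). At an unadjusted p under 0.05 in limma, 17 of the 163 were higher and 14 lower, where 6.98% and 6.5% of all genes were. The counts at that level in the lists below stand beside these shares. All siERK3 arrays lay above all siCon arrays for 20 of the 163 and below them for 17. Of all genes, 10.1% and 9.7% were so split. In the substrate list 7 of 26 were split higher and 2 lower, and in the YAP list 3 and 4 of 18. The lists were chosen with results of these data known, so nothing is read from these counts.

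The recycling endosome list held 27 measured genes, with a median difference of 0.04; 1 rose, 0 fell and 26 did not pass. EHD3, an EH-domain ATPase that shapes recycling endosome membranes, rose 1.82-fold. EHD3 gave 11.36, 11.40 and 11.33 in siERK3 arrays 1 to 3, against 10.59, 10.36 and 10.56 in siCon arrays 1 to 3 (difference 0.86, SE 0.13; adjusted p = 0.0237 in limma). EHD3 lost its call with any 1 array left out (highest adjusted p 0.114). The other 5 members with an unadjusted p under 0.05, named after their values were seen, had adjusted p of 0.145 to 0.327 in limma. TFRC, the transferrin receptor that recycles through this compartment, had a difference of 0.46 and EHD2, a relative of EHD3 at caveolae, of 0.35. The endosomal syntaxin STX12 had a difference of -0.59, the GTPase RAB22A of -0.44 and the GTPase ARF6 of -0.38. STX12 and TFRC passed with limma's mean-variance trend and robust moderation (adjusted p 0.0163 and 0.0236), where 722 genes passed in all. In each of the 5 genes the groups did not overlap. They were picked by their p on the same arrays, so nothing is read from this. Of the 27 genes, 3 were split lower and 3 higher, where 9.7% and 10.1% of all genes were.

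Flippases, scramblases and enzymes of phosphatidylserine made up a list of 21 measured genes with a median difference of -0.06; 1 rose, 0 fell and 20 did not pass. PTDSS2, which makes phosphatidylserine from phosphatidylethanolamine, rose 1.61-fold. PTDSS2 gave 9.33, 9.42 and 9.28 in siERK3 arrays 1 to 3, against 8.67, 8.72 and 8.56 in siCon arrays 1 to 3 (difference 0.69, SE 0.13; adjusted p = 0.0487 in limma), and lost its call with any 1 array left out (highest adjusted p 0.181) and after cyclic loess (adjusted p = 0.0503). The other 5 members with an unadjusted p under 0.05, named after their values were seen, had adjusted p of 0.0897 to 0.244 in limma. All 5 passed with limma's mean-variance trend and robust moderation (adjusted p 0.00179 to 0.0429), where 722 genes passed in all. With the filter at the 30th percentile of mean level, 2 genes of the list passed, where 365 passed in all. ANO6, a scramblase, had a difference of -0.65, TMEM30A, the subunit that flippases need to leave the endoplasmic reticulum, of -0.40, and ATP9A, a P4-type ATPase, of 0.59. ATP10D, another P4-type ATPase, was above the background level on 0 siERK3 arrays and 2 siCon arrays, at least 1.27-fold lower. The flippase ATP8A2 was below that level on all arrays, at 6.71 in siERK3 and 5.88 in siCon.

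The list of YAP regulators and TEAD partners held 18 measured genes, with a median difference of -0.02; 0 rose, 2 fell and 16 did not pass. YAP1, the transcriptional coactivator restrained by LATS kinases, fell 1.78-fold. YAP1 gave 10.15, 10.53 and 10.33 in siERK3 arrays 1 to 3, against 11.25, 11.01 and 11.26 in siCon arrays 1 to 3 (difference -0.84, SE 0.15; adjusted p = 0.0461 in limma). CCN1, a secreted matricellular protein and a common target of YAP, averaged 8.46 ± 0.38 in siERK3 and 9.59 ± 0.11 in siCon (SD, n = 3 each) and fell 2.19-fold (adjusted p = 0.0427 in limma). YAP1 lost its call with any 1 array left out (highest adjusted p 0.173), and among those fits CCN1 kept its call only without siERK3 1 (highest adjusted p 0.154). The kinase LATS1, a reported substrate of ITCH and WWP1, had a difference of 0.36 (SE 0.14; adjusted p = 0.307 in limma). At an unadjusted p under 0.05 in limma, 4 of the 18 were lower and 4 higher, where 6.5% and 6.98% of all genes were. Those not yet given, named after their values were seen, had adjusted p of 0.123 to 0.369 in limma. CCN2 had a difference of -0.89, but was above the background level on only 1 siERK3 array, against 3 siCon arrays. That difference thus rests in part on values below background. WWTR1 had a difference of -0.58, TEAD1 of 0.37 and TEAD2 of 0.39. TEAD3, also higher, was above the background level on 2 siERK3 arrays and 0 siCon arrays.

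The ligases' own partners gave no call with limma's default moderation. With the mean-variance trend and robust moderation AMOTL1, N4BP1, TGFBR1 and ERBB3, described below, passed (adjusted p 0.00341 to 0.0319). Of the remaining NEDD4-family ligases, 0 of 4 passed (0 at an unadjusted p under 0.05), with a median of -0.12. SMURF2 and SMURF1, which restrain TGF-beta receptors, had differences of -0.20 and -0.08 (-0.28 to -0.12 and -0.19 to -0.0048 with 1 array left out), and HECW2 lay below the background level on all arrays, at 4.42 in siERK3 and 4.58 in siCon. Of the HECT ligases outside the family, 0 of 15 passed in limma (unadjusted p under 0.05 for HERC6 and HACE1), with a median of -0.06. HERC2, a large ligase of the DNA damage response, had a difference of -0.23 (-0.32 to -0.13 with 1 array left out). HERC6 was above the background level on 2 siERK3 arrays and 0 siCon arrays, at least 1.10-fold higher (adjusted p = 0.168 in limma). HACE1 was below that level on all arrays, at 6.82 in siERK3 and 7.12 in siCon.

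Adaptors and regulators of the family had 0 of 23 members past limma's threshold (unadjusted p under 0.05 for 3 higher and 1 lower), with a median of -0.05. AMOTL1, an angiomotin protein that carries WW-binding motifs, had a difference of -0.45 (SE 0.12), N4BP1, a NEDD4-binding protein, of 0.50 (SE 0.15), and the arrestin-domain adaptor ARRDC1 of 0.35 (SE 0.14), with adjusted p of 0.151, 0.186 and 0.332 in limma. Known substrates had 0 of 26 members past it (unadjusted p under 0.05 for 3 higher and 0 lower), with a median of -0.02. TGFBR1, the type I TGF-beta receptor, had a difference of 0.56 (SE 0.14) and ERBB3, a receptor of neuregulins, of 0.46 (SE 0.13), with adjusted p of 0.108 and 0.168 in limma. RNA levels of substrates do not measure their ubiquitination or turnover. The list of E1 and E2 enzymes that charge HECT ligases held 9 genes, of which UBE2D1, UBE2D2, UBE2D3 and UBE2L3 were not analysed here. Of the other 5, 0 passed in limma (0 at an unadjusted p under 0.05), with a median of -0.15. UBA6, an E1 enzyme, had a difference of -0.29, and the E2 enzymes UBE2L6 and UBE2E1 of -0.17 and -0.15; with 1 array left out these were -0.39 to -0.14, -0.22 to -0.12 and -0.29 to -0.00485.

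The other genes of the PLEKH naming group, which share the pleckstrin homology domain, had 0 of 26 measured members past limma's threshold (unadjusted p under 0.05 for PLEKHA7, PLEKHA3 and PLEKHA8), with a median difference of -0.03. PLEKHA3 and PLEKHA8, which bind phosphatidylinositol 4-phosphate at the Golgi, had differences of -0.73 (SE 0.18) and -0.63 (SE 0.24), with adjusted p of 0.121 and 0.289 in limma; PLEKHA3 passed with the trend and robust moderation (0.0168). PLEKHA7, a protein of cell junctions, lay below the background level on all arrays, at 4.92 in siERK3 and 4.08 in siCon.

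**Figure D4:**
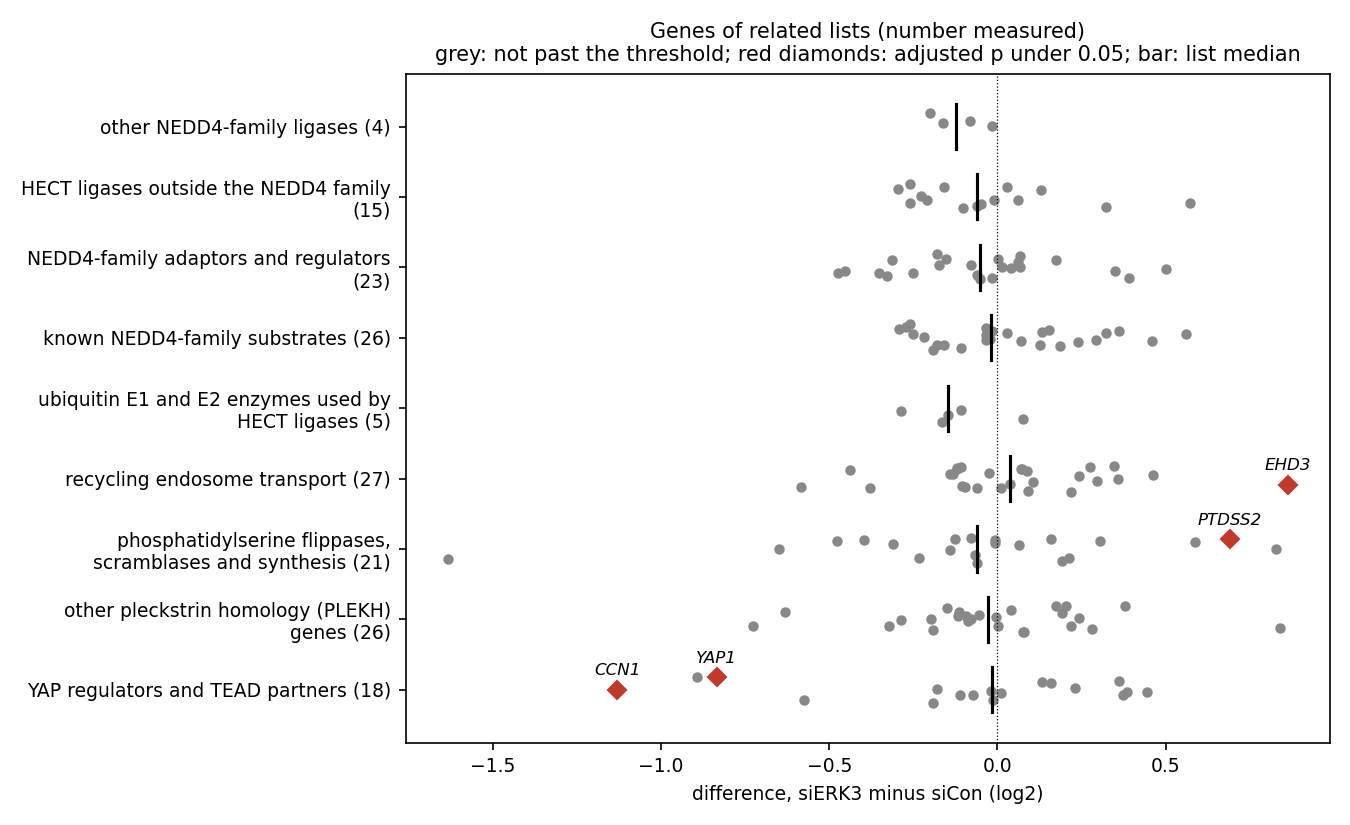
Difference of siERK3 minus siCon on the log2 scale (horizontal axis) for the measured genes of the 9 lists, 1 point a gene, with the list median as a black bar and genes past an adjusted p of 0.05 in limma as red diamonds. EHD3 and PTDSS2 lie to the right of 0, YAP1 and CCN1 to the left, and the list medians lie between -0.15 and 0.04.

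The genes whose values over the 6 arrays lay nearest to those of PLEKHB2 were found by centring each gene on its own mean and taking the root mean square difference from PLEKHB2. Among 8165 other genes above the background level on all arrays of at least 1 group, the nearest was LIMK1, the kinase of cofilin, at 0.140 log2 units. It was followed by the secreted pentraxin PTX3 at 0.146, the metalloprotease ADAM19 at 0.188, the coagulation inhibitor TFPI at 0.201 and the small GTP-binding protein GEM at 0.211, a value that rests in part on siERK3 levels below background. LIMK1 averaged 8.22 in siERK3 and 9.93 in siCon, and GEM 6.44 in siERK3, where no array was above the background level, and 8.36 in siCon. These 5 genes are, like PLEKHB2, much lower in siERK3, and the likeness over 6 arrays rests mainly on that shared step between the groups. None of the other 8 genes of the set came near, with distances of 0.761 for ITCH to 1.02 for WWP2. These distances likewise rest mainly on the step, large in PLEKHB2 and smaller in the 8, and are not separate evidence.

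**Figure D5:**
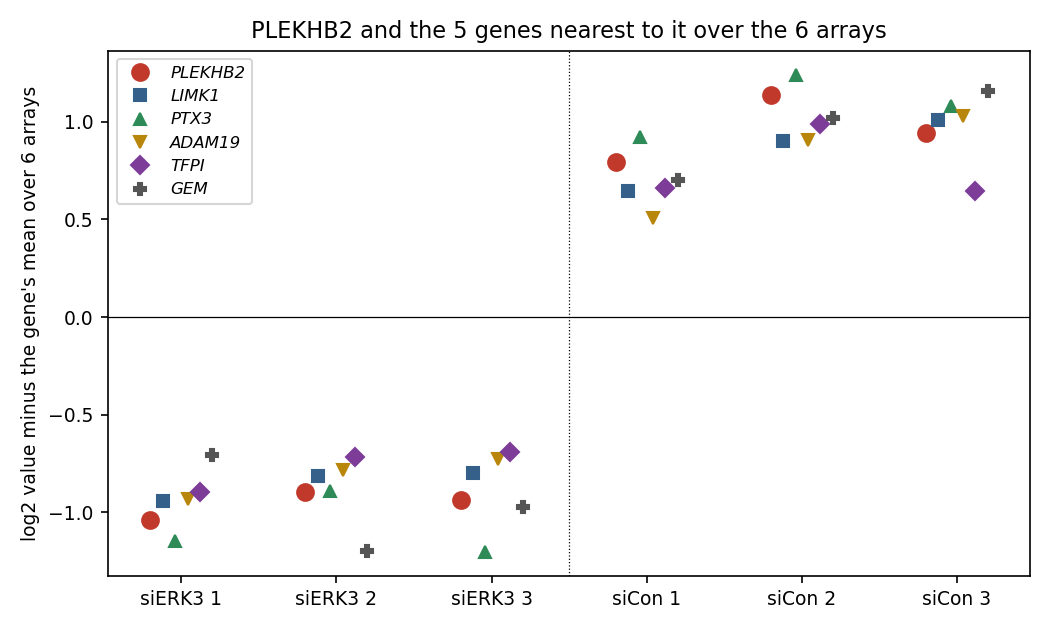
Log2 value minus the gene's own mean over 6 arrays (vertical axis) for PLEKHB2 and the 5 genes nearest to it, on the 3 siERK3 arrays (left) and the 3 siCon arrays (right). All 6 genes lie below 0 on every siERK3 array and above 0 on every siCon array.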

How the data were processed

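The deposited table holds 1 log2 value per probe set and array from 6 Affymetrix Clariom S Pico human arrays; log2 as the unit is inferred from the range of the deposited numbers, with the authors' software not given in the sources used here. The arrays have nearly equal medians, as they are after normalization between arrays; the method is not stated. The scale's zero point and any stretch are unknown, and folds depend on the latter. GEO's platform annotation gave 1 gene symbol for 17709 of 24351 probe sets, several for 0. The brightest probe set was kept for 20 genes with more than 1, leaving 17687 genes. Each of the 9 genes described had a single probe set.

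The test was limma 3.58.1 (R 4.3.3; lmFit and eBayes on siERK3 minus siCon), called at 0.05 after Benjamini-Hochberg adjustment across genes; no filter or pseudocount was used, and the number of arrays limits the precision. The script was tested on simulated data, with independent noise and shifts larger than the differences of the set's genes other than PLEKHB2. That check says nothing of smaller differences or of effects shared by arrays. The 95th percentile of 612 negative controls on each array served as background level; a gene at or below it on all arrays of 1 group has only a bound ("at least N-fold"), and a gene below it in both has levels only.

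The 9 genes and the lists were chosen with earlier results of these data known. Genes named were all 9, MAPK6, from each list up to 4 that passed or otherwise the 3 with the smallest p, and the 5 nearest to PLEKHB2; exceptions are marked. Alternatives were quantile normalization, subtraction of array medians, cyclic loess, a filter at the 30th percentile of mean level, the mean of probe sets, a trend with robust moderation, array weights, a replicate block, each array left out, and, added after seeing the data, 2 arrays left out together. The labels do not say whether array numbers pair the samples, and the main fit did not pair them.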

Additional observations from a re-analysis of the deposited data

How the results depend on the processing

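The PLEKHB2 difference, described and not tested here, was -2.00 to -1.83 over the 15 alternatives, of which 11 could change it. The other 8 genes gave 120 values under these alternatives. Of these, 1 passed limma's threshold (ITCH with the trend and robust moderation, adjusted p = 0.042) and 1 changed sign (ATP8A1, 0.02 without siERK3 2). None moved by the SD between replicates, but leaving out 1 array of 3 cannot move a difference that far, so nothing is read from this. The number of the 9 genes called was 2 with the trend and robust moderation and 1 under every other alternative. PLEKHB2 was among them under each, and because it was chosen on this comparison, nothing is read from that. The number called over all genes, 169, was 365 with the filter at the 30th percentile, 722 with the trend and robust moderation, 23 to 60 with 1 array left out, and 7 with siCon 2 and siERK3 3 both left out. Of the list genes, 4 were called. This was 18 with the trend and robust moderation, 5 with the filter at the 30th percentile and 3 after cyclic loess. With 1 array left out 0 or 1 were called (24 to 33 at an unadjusted p under 0.05 in limma). With siCon 2 and siERK3 3 both left out 0 were called (22 at that level). Fits that leave arrays out rest on fewer samples; otherwise the cause was not tested. No label says whether arrays with the same replicate number are paired. Deviations of same-numbered arrays from their group means correlated at 0.0492, -0.124 and -0.0386. The largest such correlation between arrays of different groups was 0.169, for siCon 2 and siERK3 3. With 3 arrays a group these values cannot show whether the samples were paired. With the replicate block, 33 genes were called over all genes and 0 list genes (27 at an unadjusted p under 0.05), and differences, such as the -1.92 of PLEKHB2, cannot change under it in a balanced design. Signal near background limits ATP8A1 and PLEKHB1.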
